A study of Homo sapiens with 6 samples.

Results

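The 10 genes described here encode alpha-tubulins (TUBA1A, TUBA1B, TUBA1C, TUBA3C, TUBA3D, TUBA3E and TUBA4A) and beta-tubulins (TUBB2A, TUBB2B and TUBB6). They were taken by symbol from a table of 16715 distinct gene identifiers, and all 10 had values. RNA was sequenced from HCT116 cells, an established human colorectal carcinoma line at passages 7 to 10, in 3 libraries of 5aza-treated cells and 3 of control cells. Treated cells had been given 5 µM 5aza for 48 hours and then fresh medium for another 48 hours. The labels carry this protocol for every sample and do not say what the control cells received in its place. The compound appears as 5aza in the titles and as DAC in the sample codes, with no full name. Azanucleoside inhibitors of DNA methyltransferases are incorporated into DNA, bind the enzymes there, and lower DNA methylation as cells divide. Nothing in the labels says that the libraries came from separate cultures, so p-values measure only the spread between these samples, which may be technical.

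Microtubules are hollow polymers of alpha- and beta-tubulin dimers. They form the mitotic spindle, the tracks of kinesin and dynein, and the core of cilia and sperm tails. Human cells hold a family of genes for each subunit. The encoded isotypes differ most in the acidic tail at the C-terminus, where many microtubule-associated proteins and modifying enzymes act. TUBA1B, TUBA1C and TUBB are made in most dividing cells, TUBA1A and TUBB2B are best known from developing neurons, and the TUBA3 genes are known for expression in the testis.

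Values are FPKM, by definition fragments divided by transcript length and by library size. How they were computed is not stated, so levels of different genes, above all of close copies, can be compared only roughly. Summed over the table, FPKM lay between 577735 and 592051 in 5aza libraries, and between 601916 and 628399 in control libraries. Of the epithelial markers, the keratins KRT8, KRT18 and KRT19 and the adhesion gene EPCAM were abundant in both groups. CDH1 was lower, with means of 16.2 FPKM in 5aza cells and 12.7 FPKM in control cells. CDX2 had means of 9.37 FPKM in 5aza cells and 9.01 FPKM in control cells. KRT8, a keratin of simple epithelia, lay between 1129 and 1164 FPKM in 5aza libraries, and between 945 and 1015 FPKM in control libraries. EPCAM went the other way, with 157, 152 and 151 FPKM in 5aza libraries, against 167, 166 and 166 FPKM in control libraries (log2 change -0.12, limma adjusted p = 0.0213). VIL1, a brush border gene, was at or below 0.191 FPKM in every library. Summed over the 7 epithelial markers, the level lay between 2845 and 2918 FPKM in 5aza libraries, and between 2346 and 2500.2 FPKM in control libraries. KRT8, KRT18 and KRT19 make up most of this sum, so it says little of the other markers. Leukocyte, endothelial, fibroblast and hepatocyte markers stayed at or below 7.24 FPKM, and the highest of them were COL1A1 and CD68, which both rose. Their part in the results below was not tested.

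TUBA3D had the largest log2 fold change of the 8 genes tested, and its promoter is shown with those of TUBA3E and TUBA3C to set the copies side by side. The sequences are the 250 bases before the annotated start (RefSeq, GRCh38.p14), written 5′ to 3′ on the strand of the gene, with each CG, the dinucleotide that DNA methyltransferases act on, in capitals. They lie at chr2:131475869-131476118 on the plus strand (TUBA3D), chr2:130198440-130198689 on the minus strand (TUBA3E) and chr13:19181825-19182074 on the minus strand (TUBA3C).
TUBA3D: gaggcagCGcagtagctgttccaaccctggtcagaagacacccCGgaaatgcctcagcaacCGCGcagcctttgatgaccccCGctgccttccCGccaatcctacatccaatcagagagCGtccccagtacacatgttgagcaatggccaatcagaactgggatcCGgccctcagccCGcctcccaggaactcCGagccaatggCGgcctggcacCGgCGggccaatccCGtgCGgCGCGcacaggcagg
TUBA3E: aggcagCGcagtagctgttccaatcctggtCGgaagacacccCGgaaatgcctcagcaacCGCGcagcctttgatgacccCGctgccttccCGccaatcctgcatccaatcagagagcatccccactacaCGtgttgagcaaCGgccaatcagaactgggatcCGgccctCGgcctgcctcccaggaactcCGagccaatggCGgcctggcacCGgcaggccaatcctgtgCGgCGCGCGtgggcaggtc
TUBA3C: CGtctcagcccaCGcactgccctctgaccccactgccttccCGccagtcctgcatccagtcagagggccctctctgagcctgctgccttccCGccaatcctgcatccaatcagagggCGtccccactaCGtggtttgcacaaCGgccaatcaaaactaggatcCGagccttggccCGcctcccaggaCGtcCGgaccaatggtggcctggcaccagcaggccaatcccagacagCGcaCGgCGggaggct
The printed stretch holds 17 CG in TUBA3D, 18 in TUBA3E and 14 in TUBA3C. In a global alignment, 92.9% of columns were identical between TUBA3D and TUBA3E, 68.7% between TUBA3D and TUBA3C, and 70.4% between TUBA3E and TUBA3C. With the 50 bases after the start added, each window of 300 bases held 19 to 20 CG, against a median of 14 over 35116 RefSeq windows of that length. At least 19 CG were in 42.9% of all windows, so many promoters are as dense. The CCAAT motif, counted on both strands, occurred 5 times in the windows of TUBA3D and TUBA3C and 6 times in that of TUBA3E. It occurred at all in 34.6% of windows and at least 5 times in 0.36%, a limit chosen after the counts were seen. GCGGGAA, on either strand, occurred once or more in each of the 3 windows, against 6.6% of all windows. CACGTG occurred in the TUBA3E window (7.3% of all windows), and neither GGGCGG (45.0%) nor TATAAA (11.5%) occurred in any of the 3. These matches are descriptions of letters, not of bound factors.

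The transcribed copies are close as well. In the coding sequence of 1350 bases (GENCODE release 29), TUBA3D and TUBA3E differed at 16 positions, TUBA3C and TUBA3D at 46, and TUBA3C and TUBA3E at 52. The 90 coding bases with most differences among the copies are bases 262 to 351, counted from the A of the start codon. They are shown because reads within the coding sequence can be told apart only where such positions fall. Capitals mark the 7 positions at which the copies are not all the same. At most of these, TUBA3D and TUBA3E have the same base and TUBA3C stands apart.
TUBA3D: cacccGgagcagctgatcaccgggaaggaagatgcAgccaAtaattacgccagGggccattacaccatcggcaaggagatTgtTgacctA
TUBA3E: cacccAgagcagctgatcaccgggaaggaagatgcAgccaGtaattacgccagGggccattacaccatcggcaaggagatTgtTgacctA
TUBA3C: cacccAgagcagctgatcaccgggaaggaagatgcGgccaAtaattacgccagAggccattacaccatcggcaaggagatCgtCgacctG
Of the 50-base words of the TUBA3D transcript, 51.8% also occur in a transcript of another gene, 44.6% in TUBA3E and 14.8% in TUBA3C. Neither the read length nor the treatment of reads with several matches is stated. Values of single copies are therefore uncertain, and the summed value of the copies is given beside them. Any reads left out for having several matches would be missing from a sum of copies too.

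TUBA3D (ENSG00000075886, GRCh38 chromosome 2, 131476093 to 131482934, plus strand, 5 exons) was close to silent in control cells and was transcribed after 5aza. It had 3.07, 3.12 and 3.20 FPKM in the 5aza libraries, against 0.0426, 0.0429 and 0.109 FPKM in the control libraries. The groups were far apart, and the 5aza libraries lay close together. The mean was 3.13 ± 0.0622 FPKM in 5aza cells and 0.0648 ± 0.0383 FPKM in control cells (SD, n = 3 each), a ratio of 48.3. That ratio was 73.3 without control replicate 3, since the denominator is close to 0. On the log2(FPKM + 0.1) scale TUBA3D rose by 4.32 (SE 0.21, limma adjusted p = 1.87e-05). The size of this log2 change is set by the pseudocount, with 1.96 at a pseudocount of 1 and 5.50 at 0.01, and the call held under both. TUBA3D passed the filter on low values only through its 5aza libraries, so that it had to differ. Of 200 tested genes under 0.5 FPKM in every control library, 88.5% rose. In bulk RNA, a low level in all cells and a higher level in few cells cannot be told apart.

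The other copies stayed near 0. TUBA3E (ENSG00000152086, chromosome 2, 130191743 to 130198461, minus strand) had 0.0803, 0.294 and 0.204 FPKM in the 5aza libraries, against 0, 0 and 0.0219 FPKM in the control libraries. All 5aza values were above all control values, but the highest of them, 0.294 FPKM, was far below the lowest TUBA3D value in 5aza cells, 3.07 FPKM. TUBA3C (ENSG00000198033, chromosome 13, 19173770 to 19181852, minus strand) was listed at 0 in 5aza replicates 1 and 3 and at 0.0685 FPKM in 5aza replicate 2, against 0 in all control libraries. Neither reached the filter of 0.5 FPKM in 3 libraries, so neither was tested. Summed over the 3 copies, the level was 3.15, 3.49 and 3.40 FPKM in 5aza libraries, against 0.0426, 0.0429 and 0.131 FPKM in control libraries. TUBA3D made up 89.6% to 97.5% of this sum in 5aza cells, and 83.3% to 100% in control cells. The control shares rest on sums of at most 0.131 FPKM and do not show which copy was active there.

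**Figure D1:**
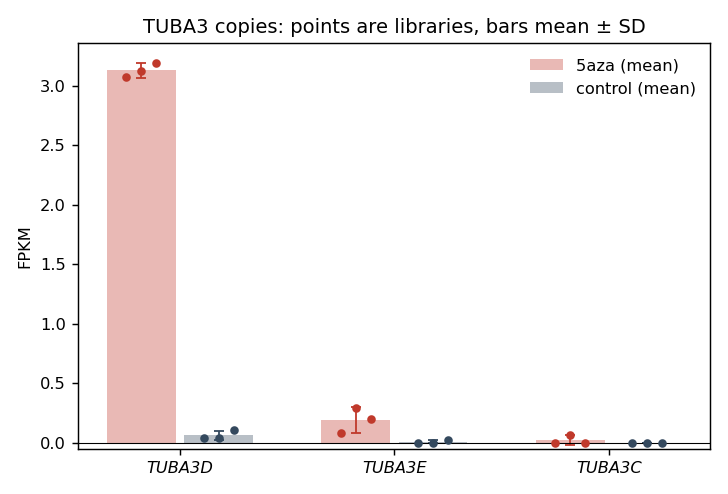
FPKM (linear axis) of the 3 TUBA3 copies; points are single libraries, bars are means with SD over 3 libraries, 5aza in red on the left and control in blue on the right of each pair. TUBA3D stands at 3.07 to 3.20 FPKM in 5aza libraries, whereas TUBA3E is at most 0.294 FPKM and TUBA3C at most 0.0685 FPKM.

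Germ cell genes were looked at beside this rise. Of the 6 marker genes, ACR and DDX4 had values, and neither was tested. DDX4, a helicase of the germ line, had 0.158, 0.177 and 0.258 FPKM in 5aza libraries, against 0.0189, 0 and 0 FPKM in control libraries. ACR, the acrosomal protease, had 0.212, 0.299 and 0.190 FPKM in 5aza libraries, against 0.277, 0.387 and 0.341 FPKM in control libraries. The summed level of both lay between 0.370 and 0.476 FPKM in 5aza libraries and between 0.296 and 0.387 FPKM in control libraries. DDX4 was higher in 5aza libraries and ACR had a lower mean there, so this sum describes neither gene. TUBA3D lies within the annotated span of MZT2A on the other strand, with no exon base in common. MZT2A, a subunit of the gamma-tubulin ring complex, had 145, 139.7 and 139 FPKM in 5aza libraries, against 162, 169.5 and 147 FPKM in control libraries.

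The annotated genes whose 6 values lay closest to those of TUBA3D, by Euclidean distance on the log2(FPKM + 0.1) scale, were TRIM55 (distance 0.36), HCLS1 (0.66), GJA1 (0.74), SYCP3 (1.19) and CXCL5 (1.23). TRIM55, a ring finger protein of muscle, had 3.55, 3.62 and 3.08 FPKM in 5aza libraries, against 0.0529, 0.0613 and 0.110 FPKM in control libraries. HCLS1, an actin regulator of blood cells, had 3.47, 3.55 and 3.53 FPKM in 5aza libraries, against 0.0397, 0.0519 and 0.0391 FPKM in control libraries. GJA1 encodes the gap junction protein connexin 43, SYCP3 a protein of the meiotic chromosome axis, and CXCL5 a neutrophil chemokine. In 5aza libraries these last 3 genes lay between 1.75 and 3.68 FPKM, and in control libraries between 0 and 0.183 FPKM. They were picked for their likeness, so their changes are a description.

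TUBA1B (ENSG00000123416, chromosome 12, 49127782 to 49131397, minus strand), an alpha-tubulin of most dividing cells, was the most abundant of the 10 genes and fell after 5aza. It had 1081, 1037 and 1040.3 FPKM in 5aza libraries, against 1372, 1426 and 1256 FPKM in control libraries. All 5aza values were below all control values. The mean was 1053 ± 24.6 FPKM in 5aza cells and 1351 ± 86.9 FPKM in control cells (SD, n = 3 each), a log2 change of -0.36 (SE 0.05, limma adjusted p = 0.00258). The call held under all 15 alternatives, with log2 changes from -0.41 to -0.23. Of 926 tested genes with a mean of at least 100 FPKM, 40.5% fell and 5.62% rose.

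TUBA1C (ENSG00000167553, chromosome 12, 49188736 to 49274603, plus strand), next in abundance, had 636, 639.5 and 599 FPKM in 5aza libraries, against 685, 712 and 648 FPKM in control libraries. The groups did not overlap, but the change did not pass the test (log2 fold change -0.13, limma adjusted p = 0.0759). It passed without control replicate 3 (adjusted p = 0.0295), with median scaling (0.0494) and with the replicate block (0.0175), and its sign turned under quantile normalization (log2 fold change 0.0023, adjusted p = 0.961).

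TUBA1A (ENSG00000167552, chromosome 12, 49184796 to 49189324, minus strand), known from developing neurons, had 66.6, 54.4 and 64.6 FPKM in 5aza libraries, against 46.0, 56.7 and 56.2 FPKM in control libraries. The groups overlapped through 5aza replicate 2, and the test was not passed (log2 fold change 0.22, SE 0.10, limma adjusted p = 0.149). TUBA1A, TUBA1B and TUBA1C lie next to each other, and their coding sequences are 95.9% to 97.2% identical. Of the 50-base words of TUBA1B, 62.7% occur in another gene's transcript. The sum of these 3 genes depends less on how shared reads were divided among them, but would also lack any that were left out. It was 1783, 1731 and 1704 FPKM in 5aza libraries, against 2103, 2194 and 1960.3 FPKM in control libraries. The summed groups did not overlap, as in 42.2% of the single genes tested, and the ratio of means was 0.834. TUBA1B and TUBA1C make up most of the sum, and both are above 100 FPKM, where 40.5% of genes tested fell. The sum was not taken under quantile normalization.

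TUBA4A (ENSG00000127824, chromosome 2, 219249711 to 219278170, minus strand), an alpha-tubulin abundant in muscle and platelets, had 33.3, 28.4 and 32.3 FPKM in 5aza libraries, against 35.2, 35.5 and 31.0 FPKM in control libraries. The groups overlapped, and the test was not passed (log2 fold change -0.11, limma adjusted p = 0.307). With 5.3% of its 50-base words in another transcript, all of them in TUBA4B, TUBA4A is the alpha-tubulin of this set that is least affected by copies.

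Among the beta-tubulins, TUBB2A (ENSG00000137267, chromosome 6, 3153669 to 3157526, minus strand) rose by a small amount. It had 29.4, 31.5 and 30.9 FPKM in 5aza libraries, against 27.5, 26.3 and 25.2 FPKM in control libraries. All 5aza values were above all control values, with means of 30.6 ± 1.09 FPKM in 5aza cells and 26.3 ± 1.18 FPKM in control cells (SD, n = 3 each), a log2 change of 0.22 (SE 0.05, limma adjusted p = 0.0151). The call was lost without 5aza replicate 2 (adjusted p = 0.0524) and without 5aza replicate 3 (adjusted p = 0.0513). TUBB2A is encoded beside TUBB2B, and the coding sequences differ at 24 of 1335 positions. Of its 50-base words, 60.3% also occur in TUBB2B.

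TUBB2B (ENSG00000137285, chromosome 6, 3224261 to 3231730, minus strand), a beta-tubulin of the developing brain, had 1.45, 1.46 and 1.17 FPKM in 5aza libraries, against 0.958, 1.28 and 1.03 FPKM in control libraries. The groups overlapped, and the test was not passed (log2 fold change 0.30, SE 0.16, limma adjusted p = 0.223). The sum of TUBB2A and TUBB2B was 30.8, 33.0 and 32.1 FPKM in 5aza libraries, against 28.5, 27.5 and 26.2 FPKM in control libraries.

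TUBB6 (ENSG00000176014, chromosome 18, 12307669 to 12344320, plus strand), whose coding sequence is 86.2% identical to that of TUBB2A, had 105, 106 and 96.9 FPKM in 5aza libraries, against 95.2, 98.3 and 90.7 FPKM in control libraries. The groups overlapped, and the test was not passed (log2 fold change 0.11, SE 0.05, limma adjusted p = 0.115). TUBB6 passed under quantile normalization (log2 fold change 0.20, adjusted p = 0.00899), with log2 changes centred along the level of expression (0.19, adjusted p = 0.00818) and with the replicate block (0.11, adjusted p = 0.0311). Only 1.0% of its 50-base words occur in another gene's transcript, but 837 exon bases overlap those of AFG3L2 on the other strand.

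**Figure D2:**
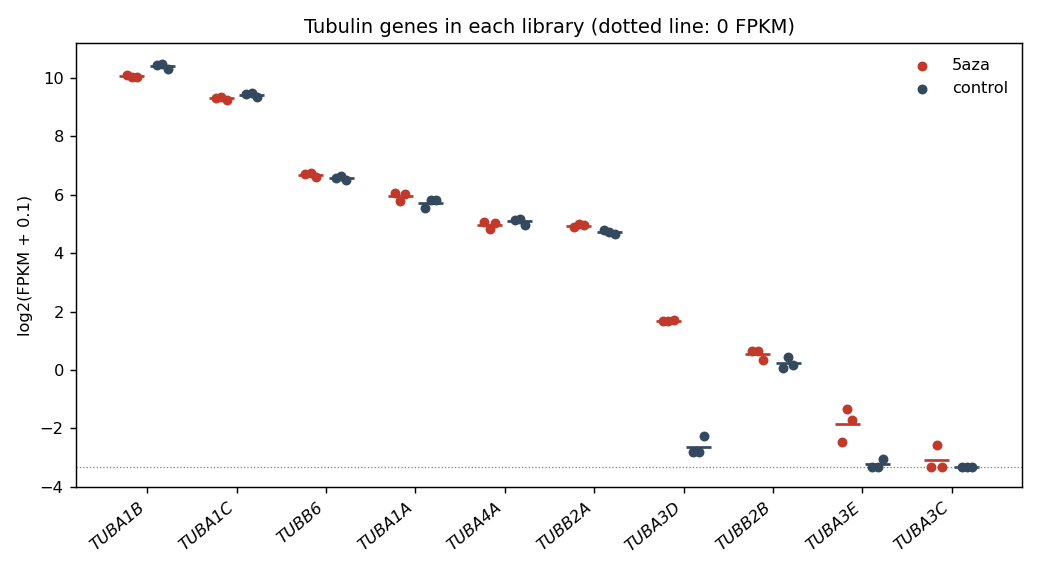
log2(FPKM + 0.1) of the 10 tubulin genes in each library, in order of their mean FPKM in 5aza cells; points are libraries, short lines the means of the log2 values, 5aza (red) left of control (blue). TUBA3D is the gene whose groups stand furthest apart, at 3.07 to 3.20 FPKM in 5aza libraries and 0.0426 to 0.109 FPKM in control libraries, and the order of the 6 most abundant genes is the same in both groups.

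Of the 10 genes, 8 passed the filter and were tested: 2 rose (TUBA3D and TUBB2A), 1 fell (TUBA1B) and 5 did not pass. Over all 12360 genes tested, 23.7% were called, 10.6% as rises and 13.1% as falls. After that centring along expression, the calls over all genes were 1473 rises and 1176 falls, in place of 1310 and 1619. The median log2 fold change of the 8 tested members was 0.16, beside -0.01 over all genes tested. TUBA3C and TUBA3E were not tested, so this median does not describe all 10 genes, and TUBA3D passed the filter through its 5aza libraries. With no filter on low values, the median was 0.22 over the 10 members, beside 0.03 over all genes. Groups did not overlap in 4 of the 8 tested members, beside 42.2% of all genes tested. TUBA3D, which had to differ, is 1 of these 4 and 1 of the 2 rises. With it among them, neither count is a result about the members. By level, the order in 5aza cells was TUBA1B, TUBA1C, TUBB6, TUBA1A, TUBA4A, TUBB2A, TUBA3D, TUBB2B, TUBA3E and TUBA3C. How shared reads of close copies were divided is not stated, so this order is approximate. TUBA4A and TUBB2A overlapped in 5aza cells (31.3 ± 2.58 and 30.6 ± 1.09 FPKM) but not in control cells (33.9 ± 2.54 and 26.3 ± 1.18 FPKM; SD, n = 3 each). TUBB2B stood above TUBA3D in control cells, with 1.09 against 0.0648 FPKM, and below it in 5aza cells, with 1.36 against 3.13 FPKM.

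The summed level of the 10 genes was 1955, 1902 and 1868 FPKM in 5aza libraries, against 2262, 2356 and 2108 FPKM in control libraries, a ratio of means of 0.851. Their make-up shifted with it. TUBA1B took 55.2% ± 0.584 of the sum in 5aza cells and 60.3% ± 0.598 in control cells (SD, n = 3 each). TUBA1C took 32.7% ± 0.817 in 5aza cells and 30.4% ± 0.292 in control cells, and TUBB6 5.37% ± 0.189 in 5aza cells and 4.23% ± 0.0658 in control cells. TUBA3D reached 0.164% ± 0.00697 of the sum in 5aza cells, against 0.00296% ± 0.00192 in control cells. Shares sum to a fixed total, so a lower share of TUBA1B raises the others. FPKM summed over the whole table were also lower in 5aza libraries. No test was made of these sums and shares, and they were not redone under quantile normalization or centring along expression.

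Several of the genes overlap others on the opposite strand, and whether the counting used strand is not stated. The exons of TUBA1B share 1309 bases by position with the antisense gene AC011603.2, and TUBA1A and TUBA1C share 490 bases with each other. TUBA1C shares 666 bases with the antisense gene AC125611.3, TUBA4A 627 with STK16 and 112 with TUBA4B, and TUBB2B 174 with PSMG4. Reads of such pairs cannot be told apart without strand. The exons of TUBA3C, TUBA3D, TUBA3E and TUBB2A shared no base with another annotated gene.

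Other genes of tubulin biology were counted in 5 lists. TUBB3, TUBG1, TBCE, VBP1, CCT6A, TTLL8, HDAC6, AGBL1, AGBL4 and FIGN were not analysed here. Of 100 genes, 90 had values and 79 were tested: 3 rose, 15 fell and 61 did not pass. The falls were 19.0% of those tested, beside 13.1% over all genes, and the median log2 fold change was -0.09, beside -0.01. After centring along expression, 4 rose and 6 fell, and under quantile normalization 4 rose and 9 fell. The count of calls also fell to 8 without 5aza replicate 2, 8 without 5aza replicate 3, 6 without control replicate 1 and 6 without control replicate 2. Of the 15 genes named by the rule, TUBB, ARL2, TUBGCP3 and STMN1 kept their call under every alternative, and 10 others lost it under at least one. MAP9 passed the filter through its 5aza libraries alone, so that it had to differ, and its calls say nothing of stability.

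Among the 7 other tubulins tested, 2 fell and 5 did not pass, beside 13.1% of all genes tested that fell. TUBB, the main beta-tubulin of dividing cells, had 694, 679 and 693 FPKM in 5aza libraries, against 877, 904 and 859.9 FPKM in control libraries. All 5aza values lay below all control values, and its log2 change of -0.35 (SE 0.03, limma adjusted p = 3.80e-04) stood beside the -0.36 of TUBA1B. Under quantile normalization the change of TUBB was -0.18, beside -0.28 for TUBA1B, and after centring along expression both were -0.23, with all these calls kept. Both genes are above 100 FPKM, where 40.5% of the genes tested fell. TUBB4B, a beta-tubulin also found in cilia, had means of 462 FPKM in 5aza cells and 512 FPKM in control cells (limma adjusted p = 0.0438). It is above 100 FPKM as well. Its call was lost under 10 of 15 alternatives, without any 1 of 5aza replicates 2 and 3 and control replicates 1, 2 and 3 among them. The log2 fold change of TUBB4B was -0.05 under quantile normalization (adjusted p = 0.360) and -0.03 after centring along expression (adjusted p = 0.642).

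**Figure D3:**
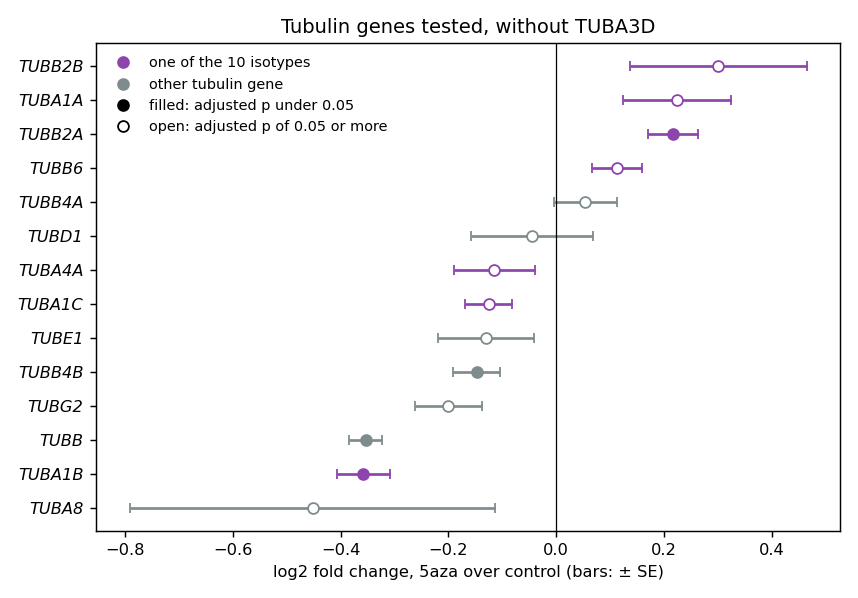
log2 fold change of 5aza over control, with its SE, for the tubulin genes tested other than TUBA3D (log2 change 4.32, off this scale); purple marks the 10 isotypes, grey the other tubulins, and filled points passed the test. TUBA1B (-0.36) and TUBB (-0.35) lie together on the low side, and TUBB2A (0.22) is the filled point on the high side.

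Of 19 tested genes of tubulin folding and dimer assembly, 5 fell, 0 rose and 14 did not pass. The falls were 26.3% of those tested, beside 13.1% over all genes. ARL2, a small GTPase that works with the tubulin cofactors, had 44.6, 43.1 and 39.9 FPKM in 5aza libraries, against 52.4, 54.3 and 48.0 FPKM in control libraries (log2 change -0.28, limma adjusted p = 0.0138). The groups of ARL2 did not overlap. Of the 7 measured subunits of CCT, the chaperonin that folds tubulin and actin, 4 fell and 3 did not pass, with log2 fold changes from -0.14 to -0.04. All 7 had a mean above 100 FPKM, where 40.5% of the genes tested fell, so this count is not a result about CCT. CCT7 and CCT5 fell by 0.14 each, and both calls were lost after centring along expression (adjusted p = 0.358 and 0.380). Without 5aza replicate 2, 5aza replicate 3, control replicate 1 or control replicate 2 both calls were lost, and that of CCT7 also without 5aza replicate 1.

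Of 9 genes of the gamma-tubulin ring complex, which nucleates microtubules, 4 fell, 0 rose and 5 did not pass, beside 13.1% of all genes tested that fell. MZT2A and MZT2B are above 100 FPKM, where 40.5% fell. TUBGCP3, a core subunit, had 21.3, 22.1 and 21.0 FPKM in 5aza libraries, against 25.9, 26.8 and 25.0 FPKM in control libraries (log2 change -0.27, limma adjusted p = 0.00441), with no overlap between the groups. The calls of TUBGCP4, MZT2B and MZT2A (log2 changes -0.20, -0.18 and -0.17) were each lost without 1 of several libraries, including 5aza replicate 2, 5aza replicate 3 and control replicate 1. After centring along expression, MZT2A and MZT2B had log2 fold changes of -0.08 each (adjusted p = 0.174 and 0.0996), and under quantile normalization -0.09 each (adjusted p = 0.125 and 0.0695). Of 17 tested tubulin modifying enzymes, 2 fell, 0 rose and 15 did not pass. That is 11.8% of those tested as falls, near the 13.1% over all genes. The falls were of TTLL12 (53.9 FPKM in 5aza cells and 60.3 FPKM in control cells, log2 change -0.16) and TTLL4 (8.91 and 10.4 FPKM, log2 change -0.23), which belong to the tubulin tyrosine ligase-like family. TTLL4 lost its call without 5aza replicate 1, 5aza replicate 3 or any 1 control replicate. TTLL12 lost its call under quantile normalization (log2 fold change -0.09, adjusted p = 0.0694) and after centring along expression (-0.10, adjusted p = 0.0601).

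Of 27 tested microtubule-associated, end-binding and severing proteins, 3 rose, 2 fell and 22 did not pass. Falls were 7.4% of those tested, beside 13.1% over all genes, where 10.6% rose. MAP9, a protein of the spindle and of cilia, had 0.619, 0.784 and 0.763 FPKM in 5aza libraries and was listed at 0 in all control libraries (limma adjusted p = 4.76e-04), so no fold change is given. Like TUBA3D, it passed the filter through its 5aza libraries alone. MAP1B, known from growing axons, had 2.65, 2.92 and 2.61 FPKM in 5aza libraries, against 1.56, 1.44 and 2.10 FPKM in control libraries (log2 change 0.67, adjusted p = 0.0173). Its call was lost without 5aza replicate 2 (adjusted p = 0.0592), control replicate 1 (0.0537) or control replicate 2 (0.0543). STMN1, stathmin, which binds free tubulin dimers, had 299, 297 and 298 FPKM in 5aza libraries, against 365, 357 and 345 FPKM in control libraries (log2 change -0.26, adjusted p = 0.00124). The change of STMN1 was -0.14 under quantile normalization and -0.15 after centring along expression, and the call held under both. STMN3 fell by 0.13 and CAMSAP2, which binds microtubule minus ends, rose by 0.16. The CAMSAP2 call was lost without any 1 of the 6 libraries. That of STMN3 was lost without 5aza replicate 1, 5aza replicate 3, control replicate 1 or control replicate 2. STMN3 also lost its call under quantile normalization (log2 fold change -0.05, adjusted p = 0.307) and after centring along expression (-0.04, adjusted p = 0.405). STMN1 and STMN3 are above 100 FPKM, where 40.5% of the genes tested fell.

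**Figure D4:**
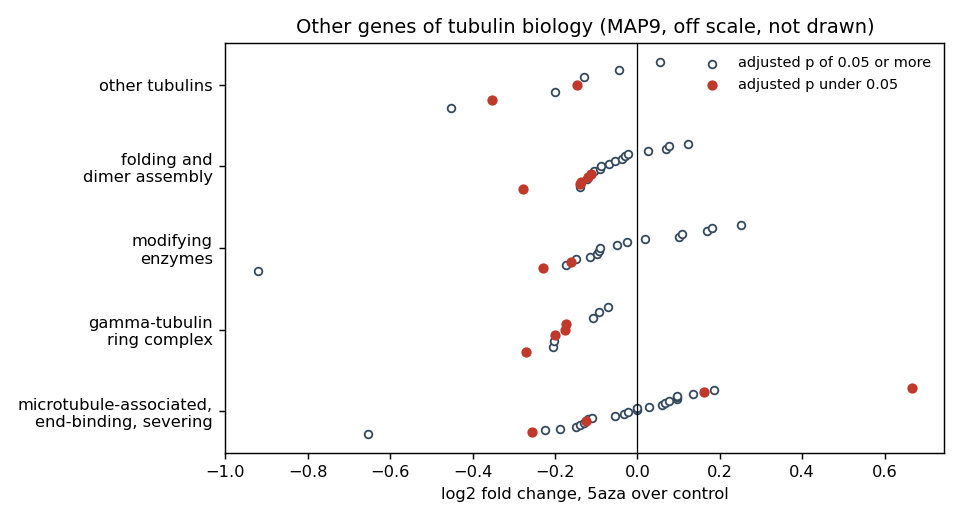
log2 fold change of 5aza over control for the tested genes of 5 lists of tubulin biology, 1 point per gene; red points passed the test, and MAP9 is left out because its control libraries are at 0. Falls of the ring complex and of the folding genes lie between -0.28 and -0.11, and MAP1B (0.67) is the red point furthest to the right.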

How the data were processed

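The authors deposited 1 table of FPKM per gene for the 6 libraries, and its 16726 rows hold 16715 distinct identifiers. Of each of the 11 repeats, the row of higher mean entered. STAR (2.5.1b), HTSeq (version 0.6.0), DESeq2 (version 1.10.1) and, as genome builds, Rnor_6.0 beside GRCh38 are named, without roles, per the submitters' processing notes. How FPKM were computed, the read length, strand marking and library depth are not given in sources used here, so no counting interval is printed. The number of replicates limits the precision, and annotations are from GENCODE release 29.

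The 12360 genes that reached 0.5 FPKM in 3 or more of the 6 libraries were tested as log2(FPKM + 0.1) with limma 3.58.1 in R 4.3.3 (variance trend, two-sided). Benjamini-Hochberg adjustment was over all genes tested, and a gene rose or fell at an adjusted p under 0.05. The fit was tested on simulated data. Such log2 changes understate those of low genes. Alternatives were other pseudocounts, filters and scalings, centring log2 changes along mean expression, no variance trend, the replicate block, and leaving out each library. Sequences were aligned with Biopython 1.88 (match 1, mismatch -1, gap opening -3, extension -0.5). Transcripts were compared by words of 50 bases, taking for each gene the principal coding transcript.

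The members and lists were chosen with earlier results of these data known. Named were all 10 members, up to 3 rises and 3 falls of each list with the largest changes, and the 5 genes closest to a called member with a control mean under 0.5 FPKM. MZT2A, the markers and the untested genes were added after their values were seen.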

Additional observations from a re-analysis of the deposited data

How the results depend on the processing

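The call of TUBA1B held under all 15 alternatives, with adjusted p of at most 0.0153. TUBA3D was called under all 15 as well, but it passed the filter through its 5aza libraries alone, so this is no sign of stability. TUBA1A, TUBA4A and TUBB2B passed under none of the 15 and kept their sign. TUBA1C turned sign under quantile normalization (0.0023), and the cause was not tested. With no filter on low values, TUBA3E had a log2 fold change of 1.38 (adjusted p = 0.0195) and TUBA3C one of 0.25 (adjusted p = 0.486). Leaving out 1 library gave 1877 to 2599 calls over all genes, 6 to 17 in the microtubule lists and 2 to 4 among the members. The lists gave 9 calls without a variance trend and 10 after centring along expression. The log2 ratio of summed TUBA3 means was 6.29 without control replicate 3, where all libraries gave 5.54.

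Replicate numbers shared between groups went with a weak likeness. Deviations of same-numbered libraries correlated at 0.048, 0.077 and 0.068, and each library correlated best with its own number. Between unlike numbers the correlation lay between -0.091 and 0.019. Whether same-numbered samples were paired or shared a batch was not tested. The fit with the replicate block gave 2932 calls in place of 2929, and 5 calls among the members (3 rises, 2 falls) in place of 3, adding TUBA1C and TUBB6. Levels under 0.5 FPKM rest on few fragments, which limits what TUBA3C and TUBA3E can show.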

Other observations

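Of the 90 list genes with values, 11 stayed under the filter and were not tested. Chosen after their values were seen, STMN2, a stathmin of neurons, had 0.0350, 0.232 and 0.129 FPKM in 5aza libraries and was listed at 0 in all control libraries. AGBL2, a tubulin carboxypeptidase, had 0.0580, 0.111 and 0 FPKM in 5aza libraries and was listed at 0 in all control libraries. TTLL9, of the tubulin tyrosine ligase-like family, had 0.0680, 0.106 and 0.109 FPKM in 5aza libraries, against 0.0407, 0.0338 and 0.0416 FPKM in control libraries. TTLL2, of the same family, was lower, with 0, 0 and 0.0150 FPKM in 5aza libraries, against 0.105, 0.0294 and 0.0151 FPKM in control libraries, where the nearest values almost met. The values of AGBL2 overlapped at 0. TTLL6 overlapped between the groups, with 0.259, 0.273 and 0.300 FPKM in 5aza libraries, against 0.249, 0.319 and 0.253 FPKM in control libraries. TUBB8 overlapped as well, with 0.438, 0.280 and 0.186 FPKM in 5aza libraries, against 0.0742, 0.101 and 0.373 FPKM in control libraries.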
